A study of Bos taurus with 14 samples.

Results

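The nuclear genes for subunits of the mitochondrial respiratory chain and the ATP synthase were examined in bovine conceptuses of Day 15 of gestation. The genes were chosen by symbol: the NDUFA, NDUFB, NDUFC, NDUFS and NDUFV genes, SDHA to SDHD, the UQCR genes with CYC1, the COX4 to COX8 genes and the ATP5 genes, each taken from probe sets that the platform annotation gives exactly 1 symbol. It found 101 of the 24016 probe sets of the array, which stand for 80 of its 9155 named genes. Complex I had 37 genes, complex II 4, complex III 9, complex IV 13 and complex V 17. CYCS, for cytochrome c, and the 13 subunit genes of the mitochondrial genome were matched by 0 probe sets and were not analysed here.

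Complexes I and II pass electrons from NADH and succinate to ubiquinone, complex III passes them on to cytochrome c, and complex IV passes them to oxygen. Complexes I, III and IV pump protons out of the mitochondrial matrix, and complex V, the ATP synthase, makes ATP as the protons return. In the bovine conceptus these complexes serve a trophoblast that elongates from a small sphere to a long filament in the days around the age sampled here.

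RNA of 14 whole conceptuses was measured, each on 1 Affymetrix bovine array, and the values are log2 expression after RMA normalisation. All were Holstein and came from donor cows inseminated with semen of 1 Holstein bull. Embryos were recovered and graded by morphology on Day 6.5, grouped by grade, and grown on in Holstein heifers, each of which received 2 to 6 embryos. The study asked how the expression of genes differs between conceptuses of Grade 1 and Grade 3 embryos and, within Grade 1, between long and short conceptuses.

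There were 5 Grade 1 long conceptuses (1 male, 4 female), 5 Grade 1 short conceptuses (2 male, 3 female), 1 Grade 1 male with no length label and 3 Grade 3 conceptuses (2 male, 1 female). The labels do not say which of them shared a dam or a recipient, so p-values measure only the spread between these conceptuses. The labels of Grade 1 short replicate 1 disagree: its source name gives long and its length characteristic short, and the characteristic was followed. Sample titles share 7 prefixes of unstated meaning, and 2 of them hold both lengths. The mean over all probe sets was 6.281 on the array of short replicate 3 and 6.222 to 6.235 on the other arrays.

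The mean of 8 trophoblast markers lay between 10.85 and 11.21 in the 14 conceptuses, that of 5 hypoblast markers between 7.49 and 7.776 and that of 2 epiblast markers between 5.711 and 6.797, and the interferon gene IFNT2 averaged 14.58 in long and 14.48 in short conceptuses. The means of the marker lists of endometrial epithelium (8 genes), blood and immune cells (8), erythroid cells (7) and endothelium (6) all lay below 5 in every group. These lists rest on different probes, so their levels are no measure of how much of each cell type was present. In tissue of several cell types, fewer cells of a type and less RNA per cell cannot be told apart. Of the 80 subunit genes, 76 had a mean of log2 6 or more over the 14 arrays.

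Between long and short Grade 1 conceptuses, the subunit genes differed by small amounts, and most of those differences pointed the same way. The mean was lower in long conceptuses for 67 of the 80 genes (83.8%), against 58.8% of all named genes, and the median difference was -0.093 on the log2 scale, against -0.035 for all named genes. In limma, with Benjamini-Hochberg adjustment over 24016 probe sets, 4 of the 80 genes passed the threshold of 0.05 (5%), where 9.5% of all named genes and 6.57% of all probe sets did. The complex I genes NDUFS3 and NDUFB7 and the ATP synthase gene ATP5MC1 fell, as did 6.24% of named genes, and the complex IV gene COX6B2 rose, as did 3.27% of named genes. The share called among the subunits was thus below the share among all named genes, while the share with a lower mean was above it.

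The plot of the difference by complex shows where the genes lay. In complex I, 31 of 37 genes had a lower mean in long conceptuses, with a median difference of -0.11. The same held for 3 of 4 genes of complex II (median -0.06), 8 of 9 of complex III (median -0.13), 9 of 13 of complex IV (median -0.043) and 16 of 17 of complex V (median -0.084). The 95% interval of a member's difference reached 0.13 to each side at the median. That width is of single genes and does not measure how precisely the medians of the 5 complexes differ. No test between complexes was made.

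**Figure D1:**
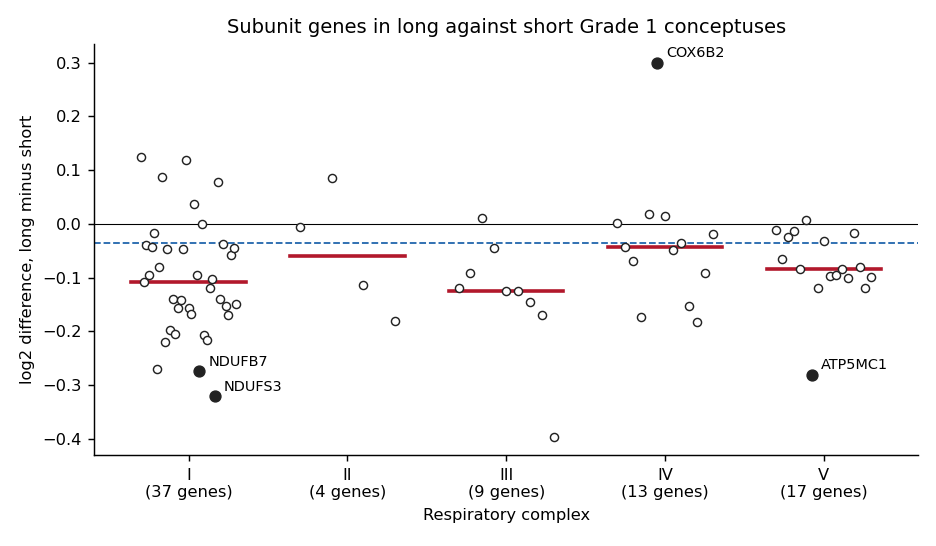
Difference between long and short Grade 1 conceptuses (log2, long minus short, 5 conceptuses each) for the 80 subunit genes by respiratory complex. Each point is a gene, filled where limma's adjusted p was under 0.05, red bars are the complexes' medians and the dashed blue line is the median of all 9155 named genes. The medians of all 5 complexes lie below the dashed line, and COX6B2 lies above all other subunit genes at 0.30.

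All 5 values of a gene were below all 5 of the other length group for 17 of the 80 genes (21.2%), where this held for 12.6% of named genes. In 16 of the 17 the long group was the lower one (20% of the subunit genes, against 9.03% of named genes). Of these, 8 belonged to complex I, 3 each to complexes IV and V, and 1 each to complexes II and III. Before adjustment, 24 of the 80 genes had p under 0.05 (30%, against 28.9% of named genes).

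Among the catalytic core of complex I, which holds the flavin and the iron-sulphur clusters, all 6 measured genes had a lower mean in long conceptuses (median -0.13). NDUFS3, a core subunit of the arm that takes electrons from NADH, was at 10.64, 10.62, 10.86, 10.76 and 10.8 in the long conceptuses and at 10.92, 10.98, 11.04, 11.14 and 11.22 in the short ones. The highest long conceptus lay below the lowest short one. The difference was -0.32 ± 0.076 (SE, n = 5 and 5), or 1.25-fold lower in long conceptuses, with adjusted p = 0.0329 in limma. A second probe set of NDUFS3, with means of 4.076 in long and 4.023 in short conceptuses, differed by 0.053 in the other direction. With the mean of both probe sets in place of the brighter one, limma's adjusted p for NDUFS3 was 0.488.

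Of the 31 other complex I genes, mostly accessory subunits that surround this core, 25 had a lower mean in long conceptuses (median -0.11). NDUFB7, an accessory subunit of the membrane arm, was at 10.43, 10.36, 10.55, 10.49 and 10.52 in long conceptuses and at 10.75, 10.61, 10.84, 10.74 and 10.79 in short ones. These groups did not overlap either. NDUFB7 was lower by 1.21-fold (-0.27 ± 0.064, limma adjusted p = 0.0325). NDUFC1, a small membrane-arm subunit, ranged from 12.27 to 12.45 in long and from 12.54 to 12.63 in short conceptuses and did not pass (-0.22 ± 0.059, limma adjusted p = 0.0519). NDUFA5, an accessory subunit of the peripheral arm, differed by -0.22 ± 0.064 at its brightest probe set (adjusted p = 0.0647), while another of its 3 probe sets gave 0.012. NDUFA7 differed by -0.20 at its brighter probe set (limma adjusted p = 0.0682), and its dim second probe set, at 4.008 in long and 4.325 in short conceptuses, passed with -0.32 (adjusted p = 0.0249). NDUFA4, counted here by its symbol, is today known as a subunit of complex IV.

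Complex II, the succinate dehydrogenase that also works in the citrate cycle, had 0 of 4 genes past the threshold, and its 2 catalytic genes differed less than its 2 membrane anchors. SDHA, the flavoprotein, averaged 10.89 in long and 10.9 in short conceptuses, a difference of -0.0053 with a 95% interval from -0.16 to 0.15. SDHB, the iron-sulphur subunit, was at 11.54, 11.69, 11.67, 11.64 and 11.7 in long and at 11.53, 11.42, 11.62, 11.62 and 11.62 in short conceptuses. All long conceptuses but replicate 1 lay above all short ones, and the difference was 0.085 (95% interval -0.053 to 0.22). The anchor gene SDHC was at 12.23, 12.28, 12.29, 12.21 and 12.14 in long and at 12.41, 12.38, 12.33, 12.3 and 12.3 in short conceptuses. Its groups did not overlap, yet they lay close together (-0.11 ± 0.056, limma adjusted p = 0.267). The other anchor gene, SDHD, was at 11.87, 11.99, 11.97, 12.03 and 12.06 in long and at 12.02, 12.21, 12.19, 12.21 and 12.19 in short conceptuses. Short replicate 1 was the only short conceptus within the range of the long ones, and the difference was -0.18 ± 0.063 (limma adjusted p = 0.113).

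In complex III the subunit that differed by the most was UQCRQ, a small subunit near the site of ubiquinone. It was at 10.38, 10.26, 10.73, 10.71 and 10.75 in long and at 10.79, 10.82, 11.08, 11.11 and 11.01 in short conceptuses. Long replicates 1 and 2 stood well below the other long conceptuses, and the groups did not overlap. The difference of -0.40 ± 0.11 was 1.32-fold, but with this spread it did not pass (limma adjusted p = 0.0573). The redox subunits CYC1, for cytochrome c1, and UQCRFS1, the Rieske iron-sulphur protein, differed by -0.12 ± 0.067 and -0.15 ± 0.061 (limma adjusted p = 0.332 and 0.193). UQCRH, the hinge protein that helps cytochrome c dock, differed by -0.17 ± 0.059 (limma adjusted p = 0.112).

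Complex IV, cytochrome c oxidase, has tissue isoforms for several of its nuclear subunits. COX6B2, known in mammals as the testis form of subunit 6B, was the member that rose: it was at 6.129, 6.234, 6.031, 6.257 and 6.11 in long and at 6.007, 5.718, 5.879, 5.854 and 5.801 in short conceptuses. All long conceptuses lay above all short ones, the nearest being long replicate 3 and short replicate 1. The rise was 1.23-fold (0.30 ± 0.071, limma adjusted p = 0.0333), at a level near the log2 6 that marks a dim probe set here. COX7C, a small structural subunit, had tight groups, with 12.81, 12.8, 12.77, 12.79 and 12.82 in long and 13.01, 12.92, 13.01, 12.96 and 13 in short conceptuses. All long values lay below all short ones, and the difference of -0.18 ± 0.051 did not pass (limma adjusted p = 0.0563).

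Among the other isoforms of complex IV, 0 passed the threshold in this comparison. COX4I1, the general form of the largest nuclear subunit, averaged 12.84 in both groups (95% interval of the difference -0.11 to 0.12). The ubiquitous COX6A1 differed by -0.17 ± 0.058 (limma adjusted p = 0.103), with a second probe set at 0.15, COX7A2 by -0.036 and COX8A by -0.091. The heart and muscle forms COX6A2 and COX7A1 were dim in all groups, between 4.266 and 5.055. COX8B, a muscle form in adult cattle, lay between 11.2 and 11.43 in the 14 conceptuses at its brighter probe set and between 5.437 and 5.856 at its other one. At their brightest probe sets, each of these 3 differed between lengths by less than 0.05.

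In complex V the F1 head, where ATP is made, had 5 of 5 genes with a lower mean in long conceptuses, by a median of only -0.024. The genes of the c-ring, which turns as protons pass, had a median of -0.12. There are 3 of them, which encode the same mature protein with different targeting sequences. ATP5MC1 was at 12.11, 12.1, 12.36, 12.25 and 12.33 in long and at 12.59, 12.35, 12.55, 12.49 and 12.57 in short conceptuses, so that 1 long conceptus lay above the lowest short one. It was 1.22-fold lower (-0.28 ± 0.075, limma adjusted p = 0.0482). ATP5MC2 differed by -0.12 ± 0.055 (adjusted p = 0.233) and ATP5MC3 by -0.033 ± 0.052 (0.778).

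The peripheral stalk, which holds the head still, had 4 of 4 genes with a lower mean in long conceptuses (median -0.09), led by ATP5PF, coupling factor 6 (-0.12 ± 0.053, limma adjusted p = 0.215). The small membrane subunits had 4 of 4 (median -0.096). ATP5IF1, which inhibits the enzyme, differed by 0.0074.

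**Figure D2:**
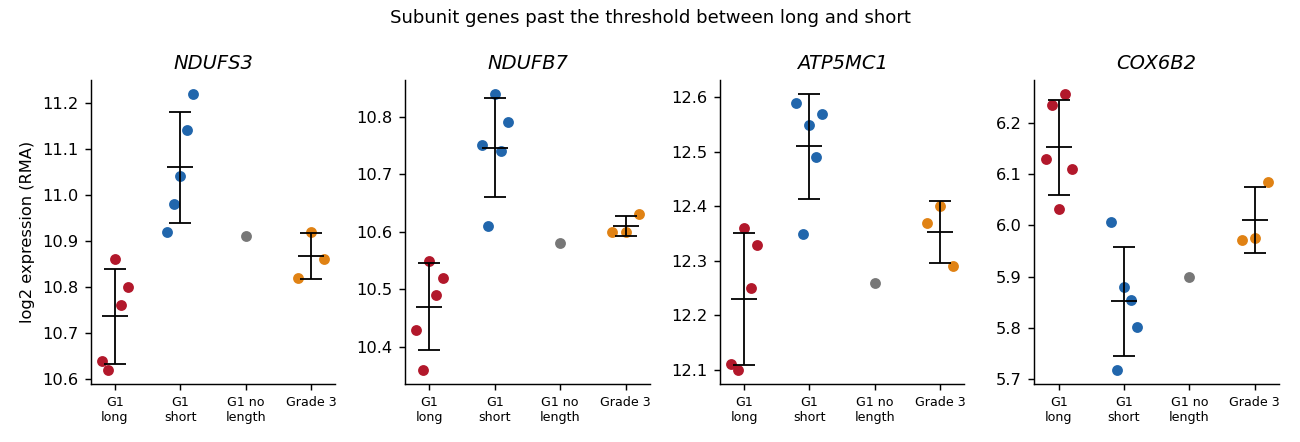
Log2 expression of the 4 subunit genes that passed limma's adjusted p of 0.05 between long and short conceptuses, in each of the 14 conceptuses by group (G1 is Grade 1). Bars are means and whiskers SDs, drawn for groups of 3 or 5, and the axes do not start at 0. The Grade 3 conceptuses lie between the means of the long and the short conceptuses for all 4 genes.

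The count of called members was 0 when Grade 1 long replicate 1, 2, 4 or 5, or short replicate 3, 4 or 5, was left out, 3 without short replicate 2 and 4 without long replicate 3 or short replicate 1. With the conceptus of disagreeing labels counted as long, 1 member was called, COX6B2, and in a fit with the title prefixes as fixed blocks 0 were. The share of all named genes called in these fits is not given here. Between 63 and 72 of the 80 genes had a lower mean in long conceptuses when 1 conceptus was left out. In those fits, which share most of their arrays, 52% to 57.9% of all probe sets had a lower mean. Without short replicates 3 and 4, whose subunit genes were highest, 60 of the 80 genes had a lower mean, against 52.5% of all probe sets. The median was then -0.056, against -0.0097 for all probe sets.

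Within the title prefix that holds 2 long and 1 short conceptuses, 55 of the 80 genes were lower in the long ones (median -0.059), against 54.1% of named genes. Within the prefix that holds 1 long and 2 short conceptuses, 67 were (median -0.095), against 59%. In the 2 prefixes NDUFS3 differed by -0.35 and -0.23, NDUFB7 by -0.21 and -0.24, ATP5MC1 by -0.25 and -0.16, and COX6B2 by 0.46 and 0.16. These genes were called on arrays that include those of both prefixes. The length groups of NDUFS3, NDUFB7 and COX6B2 did not overlap, so the direction of these 3 within a prefix was fixed in advance. The differences within a prefix have no test of their own. The fit on all 10 arrays with the prefixes as fixed blocks tests the within-prefix difference: there 10 of the 80 genes had an unadjusted p under 0.05 and 0 passed, and limma's adjusted p was 0.153 for NDUFS3, 0.22 for NDUFB7, 0.262 for ATP5MC1 and 0.186 for COX6B2.

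The deviation of each gene from its own mean over the 14 arrays, averaged over a complex, shows how far the conceptuses of a group lay apart. For complex I it ran from -0.13 to 0.0011 in long and from -0.026 to 0.11 in short conceptuses. For complex III it ran from -0.17 to 0.00018 and from -0.02 to 0.13. Over all 80 genes long replicates 1 and 2 were lowest (-0.10 and -0.07) and short replicates 3 and 4 highest (0.097 and 0.07). Short replicate 2, at -0.028, lay among the long conceptuses. The array of short replicate 3 was also high over all named genes, at 0.05.

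**Figure D3:**
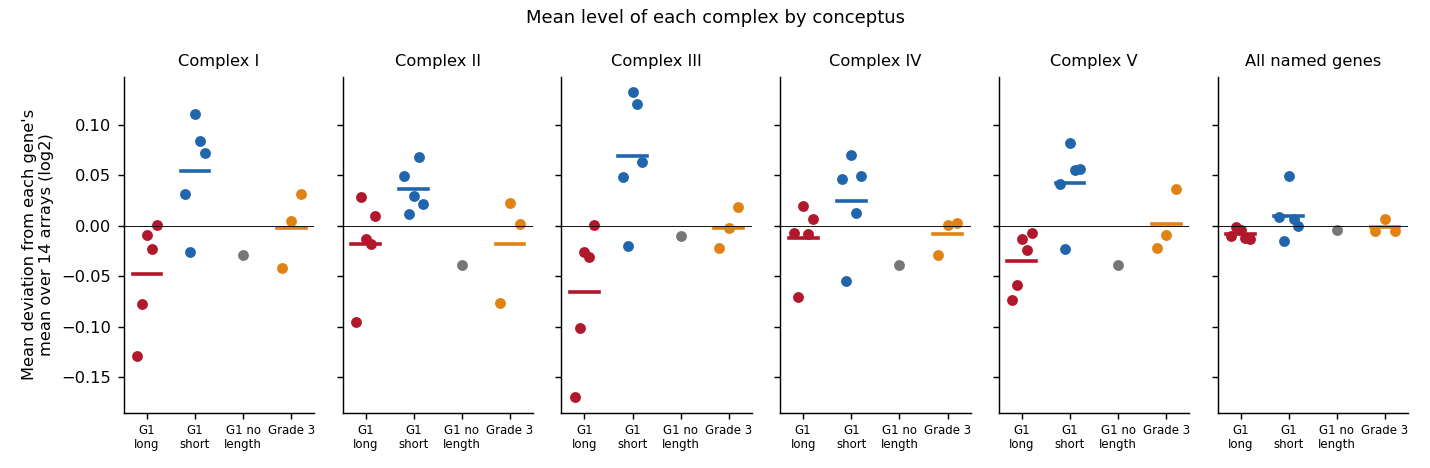
Mean deviation of a complex's genes from their means over 14 arrays (log2), for each conceptus by group (G1 is Grade 1), with all named genes for scale. Bars are group means. In complexes I, III and V the long conceptuses lie mostly below 0 and the short ones mostly above, with 1 short conceptus below 0 in each.

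Other genes of the pathway were taken from 4 lists, and their difference from the subunits was not tested. Of 50 listed assembly factors, which build the complexes without being part of them, 27 were measured, and 25 of the 27 had a lower mean in long conceptuses (median -0.25), against 58.8% of named genes. The mean of the 27 lay between 9 and 9.182 in the long conceptuses and between 9.202 and 9.402 in the short ones, so that the groups did not overlap. In limma 2 of the 27 fell and 0 rose, where 6.24% of named genes fell and 3.27% rose, so the count of calls was near that background. NDUFAF5, which modifies a core subunit of complex I during assembly, was at 9.085, 9.192, 9.369, 9.566 and 9.531 in long and at 9.694, 9.753, 9.756, 9.95 and 10.12 in short conceptuses, without overlap. It fell by 0.51 ± 0.11 (limma adjusted p = 0.0273). BCS1L, which inserts the Rieske protein into complex III, fell by 0.27 ± 0.062 (limma adjusted p = 0.0294), from a range of 10.15 to 10.38 in short to one of 9.935 to 10.07 in long conceptuses.

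Of 16 listed genes of mitochondrial biogenesis and genome expression, 10 were measured, 9 of them had a lower mean in long conceptuses (median -0.22), against 58.8% of named genes, and 3 of the 10 fell, against 6.24%. TFB2M, a factor that starts transcription of the mitochondrial genome, was at 10.53, 10.47, 10.72, 10.7 and 10.72 in long and at 10.93, 10.94, 10.92, 11.08 and 11.26 in short conceptuses. The groups stood apart, and the fall was 0.40 ± 0.085 (limma adjusted p = 0.0231). SSBP1, which binds single strands of mitochondrial DNA, fell by 0.27 ± 0.063 (limma adjusted p = 0.0326), and PPRC1, a coactivator of nuclear genes for mitochondria, by 0.35 ± 0.085 (limma adjusted p = 0.0366).

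Of 17 listed genes for other electron input to ubiquinone and for its synthesis, 13 were measured, 10 of them had a lower mean (median -0.13), against 58.8% of named genes, and 2 of the 13 fell, against 6.24%. PDSS1, which makes the side chain of ubiquinone, fell by 0.41 ± 0.096 (limma adjusted p = 0.033), with 9.362 to 9.775 in long and 9.802 to 10.14 in short conceptuses. DHODH, which passes electrons from pyrimidine synthesis to ubiquinone, fell by 0.29 ± 0.072 (limma adjusted p = 0.0374), with 8.063 to 8.37 in long and 8.452 to 8.66 in short conceptuses. Of 19 listed carriers and partners of the inner membrane, 15 were measured beside the subunits, with a median of -0.057. Only VDAC3 passed among these 15 (3.27% of named genes rose), a pore of the outer membrane, and it rose by 0.32 ± 0.084 (limma adjusted p = 0.0443), from 11.25 to 11.62 in short to 11.65 to 11.95 in long conceptuses. All 8 calls on these lists were lost without Grade 1 long replicate 1 or 2 or short replicate 4, in the fit with the title prefixes as fixed blocks and with the conceptus of disagreeing labels counted as long.

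**Figure D4:**
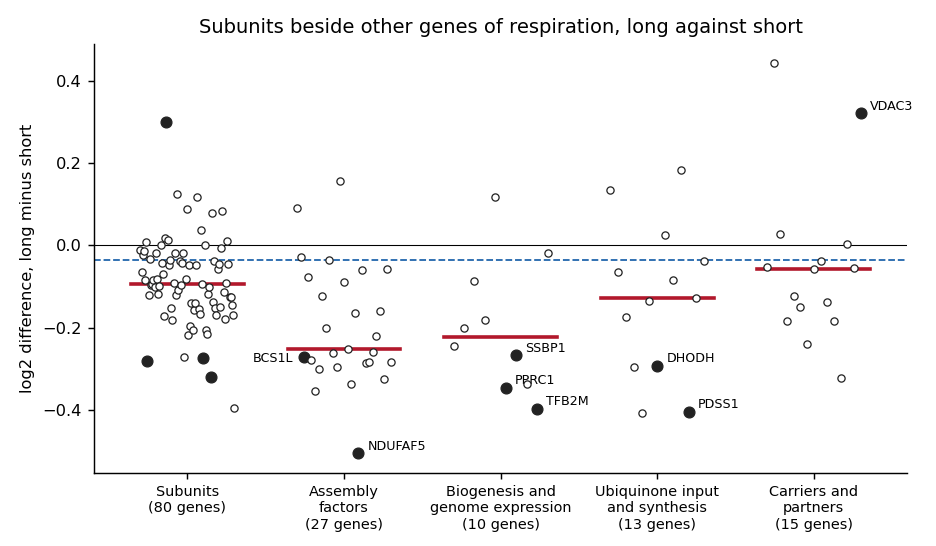
Difference between long and short Grade 1 conceptuses (log2, long minus short, 5 conceptuses each) for the 80 subunit genes and for the measured genes of 4 lists of the same pathway. Each point is a gene, filled where limma's adjusted p was under 0.05, red bars are medians and the dashed blue line is the median of all named genes. The medians of the assembly factors, at -0.25, and of the biogenesis genes, at -0.22, lie below that of the subunits, at -0.093.

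Markers of other cell types were set beside these differences. The trophoblast markers averaged 11.09 to 11.19 in long and 10.85 to 11.13 in short conceptuses, and 1 of the 8, TFAP2A, rose in long ones. Of 5 hypoblast markers 4 had a lower mean in long conceptuses (median -0.11), while APOA1 rose. The mean of the 5 was 7.559 to 7.627 in long and 7.529 to 7.704 in short conceptuses. The 2 measured epiblast markers averaged 5.711 to 6.23 in long and 5.997 to 6.797 in short conceptuses, and neither passed. The means of the blood and immune list were 4.386 to 4.531 in long and 4.51 to 4.807 in short conceptuses, with CD8A lower among its 8 genes, and those of endothelium 4.036 to 4.186 and 3.898 to 4.051, with PECAM1 higher among its 6. Of the endometrial and the erythroid markers 0 passed. Among all named genes 3.27% rose and 6.24% fell. The part of these cell types in the subunit differences was not tested.

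The study's design text gives fewer Grade 1 conceptuses for its grade comparison and does not name them. All 11 were used here, whether long, short or without a length label. Between Grade 3 and Grade 1, 0 of the 80 subunit genes passed in limma, as did 0 of all 24016 probe sets (0%). The lowest adjusted p among the subunits was 0.999, and 0 of them had an unadjusted p under 0.05, where 371 of the 9155 named genes (4.05%) did. The mean was lower in Grade 3 for 47 genes, and the median difference was -0.0046. Over the alternative settings between 31 and 57 of the genes had a lower mean in Grade 3, so the direction was not settled. The differences ran from -0.087 to 0.093, and the 95% intervals of all 80 genes together spanned -0.35 to 0.32, which is the size of difference these arrays leave within the intervals.

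By complex, the median difference between grades was -0.008 for complex I, -0.023 for II, -0.0071 for III, -0.0049 for IV and 0.0011 for V. The gene with the smallest p in complex I was NDUFA11, an accessory subunit of the membrane arm, at 10.78, 10.81 and 10.86 in the Grade 3 conceptuses and from 10.78 to 10.96 (median 10.91) in the 11 of Grade 1. The Grade 3 values lay in the lower part of the Grade 1 range (-0.078 ± 0.055, limma adjusted p = 0.999). In the other complexes that gene was SDHD (-0.047 ± 0.077), UQCRC1, a core protein of complex III (0.057 ± 0.076), COX7C (-0.058 ± 0.068) and ATP5MC2 (-0.057 ± 0.06), all with a limma adjusted p of 0.999.

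The Grade 3 conceptuses were also set against each length class, in 2 comparisons that share the Grade 3 arrays. They were grouped by grade alone, without a length class, so grade and length cannot be told apart in these comparisons. Against the long conceptuses 0 of 80 genes passed (0% of all probe sets called) and 0 had p under 0.05, where 9.63% of named genes did, while 59 of the 80 genes (73.8%) had a higher mean in Grade 3, against 56.9% of named genes. Against the short conceptuses 0 of 80 passed (0% of all probe sets called), and 68 genes (85%) had a lower mean in Grade 3, against 55.7% of named genes. There 2 genes (2.5%) had an unadjusted p under 0.05, where 12.4% of named genes did: COX7C (-0.15) and NDUFS3 (-0.19), with adjusted p = 0.37 and 0.437 in limma. The median differences were 0.04 from the long and -0.046 from the short conceptuses. Of the 3 Grade 3 conceptuses 2 were male, and of the 5 long ones 1. With sex as a covariate, 6 genes had an unadjusted p under 0.05 in limma against the long conceptuses and 1 against the short. The share of named genes at that p is not given for these fits. The medians were then 0.0575 and -0.0327, against 0.0278 and -0.00341 for all probe sets.

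The Grade 3 values of the genes called between lengths are given as a description, since those genes were picked for a large distance between long and short. NDUFS3 was at 10.82, 10.92 and 10.86 in Grade 3, above the long mean of 10.74 and below the short mean of 11.06. NDUFB7 was at 10.6, 10.6 and 10.63, between means of 10.47 and 10.75, and ATP5MC1 at 12.37, 12.4 and 12.29, between 12.23 and 12.51. COX6B2 was at 5.971, 5.976 and 6.084, between 5.852 in short and 6.152 in long conceptuses. Averaged over all 80 genes, the Grade 3 deviation of -0.0031 ± 0.03 (SD, n = 3) lay between -0.04 ± 0.044 in long and 0.048 ± 0.047 in short conceptuses (n = 5 each).

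Of the 80 genes, 2 lie on the X chromosome in the RefSeq gene table, both for accessory subunits of the membrane arm of complex I. Between 6 males and 8 females, with grade as a covariate, 1 of the 80 genes passed in limma, where 0.535% of named genes and 0.362% of probe sets did. This was NDUFA1, which lay between 12.68 and 12.91 (median 12.77) in males and between 13.04 and 13.25 (median 13.16) in females. The sexes did not overlap, as for 0.655% of named genes, and males were 1.32-fold lower (-0.40 ± 0.054, limma adjusted p = 0.00329). The call held with each of the 14 conceptuses left out in turn. NDUFB11 lay between 10.1 and 10.4 (median 10.19) in males and between 10.33 and 10.63 (median 10.5) in females and did not pass (-0.27 ± 0.063, limma adjusted p = 0.104). Without Grade 1 short replicate 1, the male with the highest value, NDUFB11 passed narrowly (limma adjusted p = 0.0499). This was the only 1 of 24 alternative settings in which it passed.

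Of all 297 named X-linked genes, 34 passed as lower and 2 as higher in males, and 227 had a lower mean in males (median difference -0.13). Of all 9155 named genes, 44 passed as lower and 5 as higher in males, and 56.7% had a lower mean in males. Over the 80 subunit genes the mean was lower in males for 62 (77.5%), with a median of -0.04, against -0.015 for all named genes. Between lengths NDUFA1 averaged 13.1 in long conceptuses, 4 of 5 of them female, and 12.98 in short ones, 3 of 5 of them female (0.13 ± 0.12, limma adjusted p = 0.614). Among females NDUFA1 was at 13.14, 13.14, 13.24 and 13.25 in long and at 13.24, 13.08 and 13.04 in short conceptuses. The males were at 12.73 in long and at 12.83 and 12.68 in short ones. In the length fit with sex as a covariate, NDUFA1 was not among the members called. How much of the difference goes with sex was not tested.

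**Figure D5:**
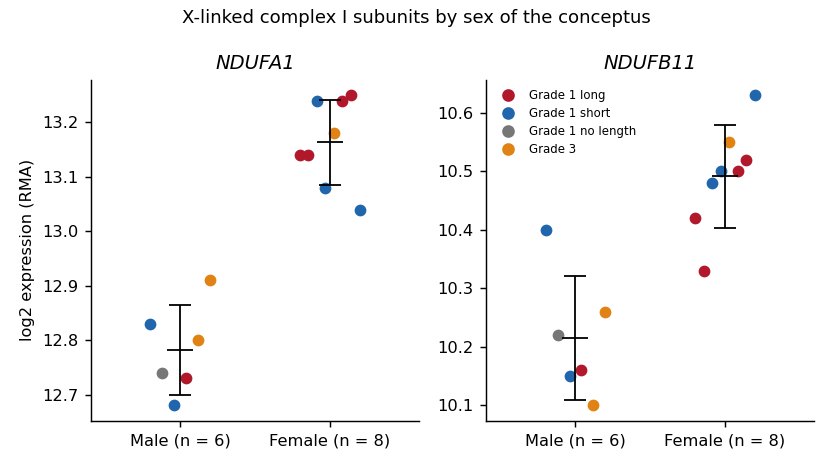
Log2 expression of the X-linked complex I genes NDUFA1 and NDUFB11 in 6 male and 8 female conceptuses, coloured by group. Bars are means, whiskers are SDs and the axes do not start at 0. All males lie below all females for NDUFA1, and 1 male lies within the female range for NDUFB11.

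Of the 80 genes, 19 were measured by more than 1 probe set. Their probe sets differed in direction for 10 of the 19 between lengths, for 12 between grades and for 9 between sexes. Of the genes named above these were NDUFS3, NDUFA5, COX6A1, COX8B and NDUFA11 between lengths. Where a gene has a single value here, it is that of the probe set with the highest mean.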

How the data were processed

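The authors deposited log2 values per probe set. Per the submitters' processing notes these came from RMA, run in Affymetrix Expression Console. Software versions and the set of arrays normalised jointly were not found in the sources used here. RMA quantile-normalises arrays, which removes a shift of all genes together and compresses differences at low intensity. The labels' protocols give 250 ng of RNA per array. Values ran from 2.235 to 14.61. The 112 array controls of 24128 probe sets were left out. The platform annotation gave 1 symbol to 13292 probe sets, several to 86 and none to 10638. All 80 members matched the RefSeq gene table (ARS-UCD2.0) by Entrez number, which gave chromosomes only. The probe set with the highest mean represents a gene.

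Comparisons used limma 3.58.1 (lmFit, eBayes) in R 4.3.3, two-sided: length on 10 arrays, grade on 14, sex on 14 with grade as covariate, and Grade 3 against each length in a 4-group fit. The scripts were tested on simulated data. Arrays have no read depth, and their number limits the precision. Members and lists were chosen with earlier results of these data known. Named genes are the members past the threshold, those of smallest p in each complex, the SDH genes, CYC1, tissue isoforms, X-linked members and list genes past the threshold. Alternatives covered centring, normalisation, dim probe sets, blocks, covariates, the test and each array left out.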

Additional observations from a re-analysis of the deposited data

Results flagged for a closer look

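SDHD, an anchor subunit of complex II, was at 12.02 in Grade 1 short replicate 1, where the nearest of the other short conceptuses was at 12.19. The gap was 0.911 of the range of the 5 short conceptuses. It was the 1 value flagged among 54 pairs of a named gene and a group that were looked at. Chance flags a value in about 1 of 20 groups, so 1 flag among 54 pairs is no more than chance gives. This is the conceptus whose labels disagree on length. The cause was not tested.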

How the results depend on the processing

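Between grades, and between Grade 3 and each length class, 0 members were called in limma under every alternative. Between long and short conceptuses, 4 members were called, and 3 to 6 with arrays centred on their median or mean, quantile-normalised again or weighted, with gene means over probe sets or with the title prefix as a random block. The count was 12 with probe sets of at least log2 6 on 3 arrays only (fewer probe sets tested), 14 with trended robust eBayes, 8 with sex as a covariate, 8 in the 4-group fit, 1 with the conceptus of disagreeing labels counted as long, and 0 with prefixes as fixed blocks, at unadjusted p under 0.01 with 1.5-fold, or, chosen after seeing the data, without short replicates 3 and 4. Leaving out 1 conceptus gave 0 to 4. The largest difference of a member was 1.32-fold, for UQCRQ, so the 1.5-fold rule could call no member and its 0 tests nothing. The share of all named genes called under each alternative is not given here. These counts therefore do not set the subunits apart from other genes. In the main fit 5% of the subunit genes and 9.5% of named genes were called. Other causes were not tested. Over the settings, the adjusted p was 0.0129 to 0.488 for NDUFS3, 0.0165 to 0.22 for NDUFB7, 0.0213 to 0.266 for ATP5MC1 and 0.0184 to 0.186 for COX6B2. Among the list genes, the call was lost without long replicate 1 or 2 or short replicate 4 for all 8 (NDUFAF5, BCS1L, TFB2M, SSBP1, PPRC1, PDSS1, DHODH, VDAC3), and for some also without long replicate 3, 4 or 5 or short replicate 1, 2, 3 or 5, in 3 (TFB2M) to 8 (DHODH, VDAC3) of 10 fits. Between sexes, 1 member was called, 0 with the 1.5-fold rule, and 1 to 2 with 1 conceptus left out. NDUFA1 differed most, by 1.32-fold, so that rule could call no member here either. Signs turned only for differences near 0 that were never called. COX4I1 was at -0.0163 with median centring, -0.000433 with the random and -0.0124 with the fixed block, and -0.00919 to 0.0164 with 1 conceptus left out. COX6A2 was at -0.000415 with median centring and -0.0325 to 0.106 with 1 left out. COX7A1 was at 0.0614 with the fixed block and -0.118 to 0.0173 with 1 left out. COX8B was at 0.00934 after quantile normalisation, 0.0208 with gene means, 0.00322 with the fixed block, 0.00711 without short replicates 3 and 4 and -0.047 to 0.00906 with 1 left out. SDHA was at 0.0173 after quantile normalisation, 0.00191 with mean centring, 0.0632 with the doubtful conceptus as long and -0.031 to 0.0353 with 1 left out. Between grades, with gene means over probe sets, NDUFA11 was at 0.0402 and UQCRC1 at -0.0192. The number of arrays limits the precision. Replicate numbers were given in accession order and pair no conceptuses, so only the title prefixes served as blocks.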
